A study of Mus musculus with 18 samples.

Results

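Wounded tissue lays down a provisional matrix before it rebuilds its own. The genes described here are 10 that make or bind this matrix: Fn1 (fibronectin), Vcan (versican), Tnc (tenascin-C), Thbs1 (thrombospondin 1), Postn (periostin), Prg4 (lubricin), Has1 and Has2 (hyaluronan synthases), Tnfaip6 (TSG-6) and Cd44 (a hyaluronan receptor). They were chosen by name, and every probe set that the array's annotation gives to 1 of these symbols alone was taken, which yielded 24 of 45101 probe sets and 10 of 18194 gene symbols. A further Thbs1 probe set carries a second symbol as well and was left out by this rule. Each gene is represented by its probe set with the highest mean over the arrays, and its other probe sets are given beside it.

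Satellite cells, the stem cells of skeletal muscle, were sorted for syndecan-3 from the tibialis anterior muscle of female mice (3 to 6 months of age in the sample labels, 3 months in the methods for these sorts), either uninjured or 12 h or 48 h after an injection of barium chloride, which kills myofibers. One set of mice was wild type (B6D2F1/J, the cross of C57Bl/6 and DBA2), and the other carried a homozygous deletion of Sdc4, the gene of the heparan sulfate proteoglycan syndecan-4, in all cells (Sdc4-/-, C57Bl/6). Strain and genotype therefore change together and cannot be told apart. RNA was amplified in 2 rounds and hybridized to Affymetrix mouse arrays, 3 for each of the 6 groups. Of the 18 arrays 17 are used, because the study removed 1 wild type uninjured array, taken to be replicate 3. The study removed it for clustering with the wild type 12 h arrays, which the paper took as a sign of myogenic commitment. It was thus left out for its expression values, and comparisons with wild type uninjured arrays depend on that choice. The labels do not say whether replicates came from separate animals, and p-values measure the spread between these samples.

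Fibronectin is an early component of the provisional matrix, which cells reach through integrins and syndecans, and it is a known ligand of syndecan-4. Hyaluronan is a long unbranched sugar made at the cell surface by the hyaluronan synthases, bound in the matrix by versican and by TSG-6, and read by cells through CD44. Tenascin-C, thrombospondin 1 and periostin are matricellular proteins, which modulate how cells attach to the matrix, and fibronectin and tenascin-C have been linked to the satellite cell niche.

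Values are log2 GCRMA signals, in which a difference of 1 is a doubling, and differences were tested in 1 limma fit over the 6 groups p-values being adjusted by Benjamini-Hochberg over the whole array. A gene is called where the adjusted p is under 0.05. The deposited values carry no detection calls, and values of about 2 to 3 lie at the floor of these arrays, where their order is not reliable and a fold change has no exact size. Levels are compared between samples for 1 probe set and never between probe sets.

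The arrays differed in quality along the groups. The mean of 18 hybridization-control probe sets, bacterial RNAs added in equal amount, was 13.5 to 14.3 in the wild type 12 h arrays, 11.7 to 12.5 in the wild type 48 h arrays, 7.86 to 8.94 in the wild type uninjured arrays and 8.74 to 12.3 in the Sdc4-/- arrays. The wild type 12 h arrays had 2832 to 3982 probe sets above a log2 value of 5, against 5076 to 7864 in the other arrays used. The wild type uninjured array left out had 4512, with hybridization controls at 12.8. Wild type 12 h replicate 2 had the lowest of these counts and a 3' Actb control value of 3.98. Replicate 3 of that group was low as well, at 8.37, where all other arrays had at least 11.57. Sdc4 itself, by its probe set with the highest mean, was at 6.88 to 8.11 in wild type 48 h arrays. In Sdc4-/- 48 h arrays it was at 4.09 to 6.53 (log2 difference -2.74, limma adjusted p = 0.0400). In uninjured arrays it was at 4.08 to 5.20 in wild type and 3.39 to 5.15 in Sdc4-/- cells, which overlap. At 12 h it was at 3.71 to 4.20 in wild type and 4.15 to 5.66 in Sdc4-/- arrays, which overlap as well (log2 difference 0.69, limma adjusted p = 0.545). This probe set thus separated the genotypes at 48 h only. The paper lists another Sdc4 probe set, which was not examined here. Pax7, the defining transcription factor of satellite cells, had a mean of 4.87 in wild type uninjured cells and 2.40 to 2.60 in the other 5 groups, and Myod1 was at 2.33 to 2.62 in all 6. Of the 5 uninjured arrays whose scan headers were read, the 2 of wild type were scanned on 1 day and the 3 of Sdc4-/- on other days, so that scan day and genotype cannot be told apart there.

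RefSeq promoter windows (GRCm38.p6) were matched for 6 of the 10 genes, and 3 are printed: those of Tnfaip6 and Cd44, called higher in Sdc4-/- than in wild type cells at 12 h, and that of Has1, a synthase that was not called in any comparison. Each is the 150 bases that end just before the annotated start, on the gene's own strand, 5′ to 3′, with motif matches in capitals. They lie at chr2:52037963-52038112 on the plus strand (Tnfaip6), chr2:102901666-102901815 on the minus strand (Cd44) and chr17:17855189-17855338 on the minus strand (Has1).
Tnfaip6: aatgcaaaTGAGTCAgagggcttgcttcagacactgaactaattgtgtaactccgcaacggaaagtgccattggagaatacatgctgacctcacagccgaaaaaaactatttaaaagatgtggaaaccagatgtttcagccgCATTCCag
Cd44: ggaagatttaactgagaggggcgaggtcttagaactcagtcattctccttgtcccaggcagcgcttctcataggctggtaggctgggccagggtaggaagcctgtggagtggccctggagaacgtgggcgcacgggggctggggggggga
Has1: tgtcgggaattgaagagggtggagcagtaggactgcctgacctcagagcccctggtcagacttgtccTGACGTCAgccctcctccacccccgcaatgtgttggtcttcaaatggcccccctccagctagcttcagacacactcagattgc

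The 250 bases before the start were searched on both strands for 6 motifs. AP-1 (TGANTCA) was found in 6.75% of 32851 windows, the CRE-type core (TGACG) in 17.8%, TEAD (GGAATG) in 12.6%, the TATA box (TATAAA) in 12.4%, NF-kappaB (by name) in 3.9% and the CArG box (by name) in 1.47%. Tnfaip6 held an AP-1 match 142 to 136 bases before its start and a TEAD match on the other strand 8 to 3 bases before it. Has1 held a CRE-type core on each strand, overlapping each other, and the Cd44 window held none of the 6. These are matches of letters and no evidence that a factor binds. The windows of Vcan, Postn and Tnc were searched too and are not printed.

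Across the 6 groups the genes fell into those that moved by several log2 units and those that stayed near the floor. Group means of the representative probe set spanned 9.12 log2 units for Prg4 and 7.37 for Fn1, but 1.03 for Has1, 0.55 for Tnc and 0.25 for Has2. The plot of log2 values by array shows both kinds.

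**Figure D1:**
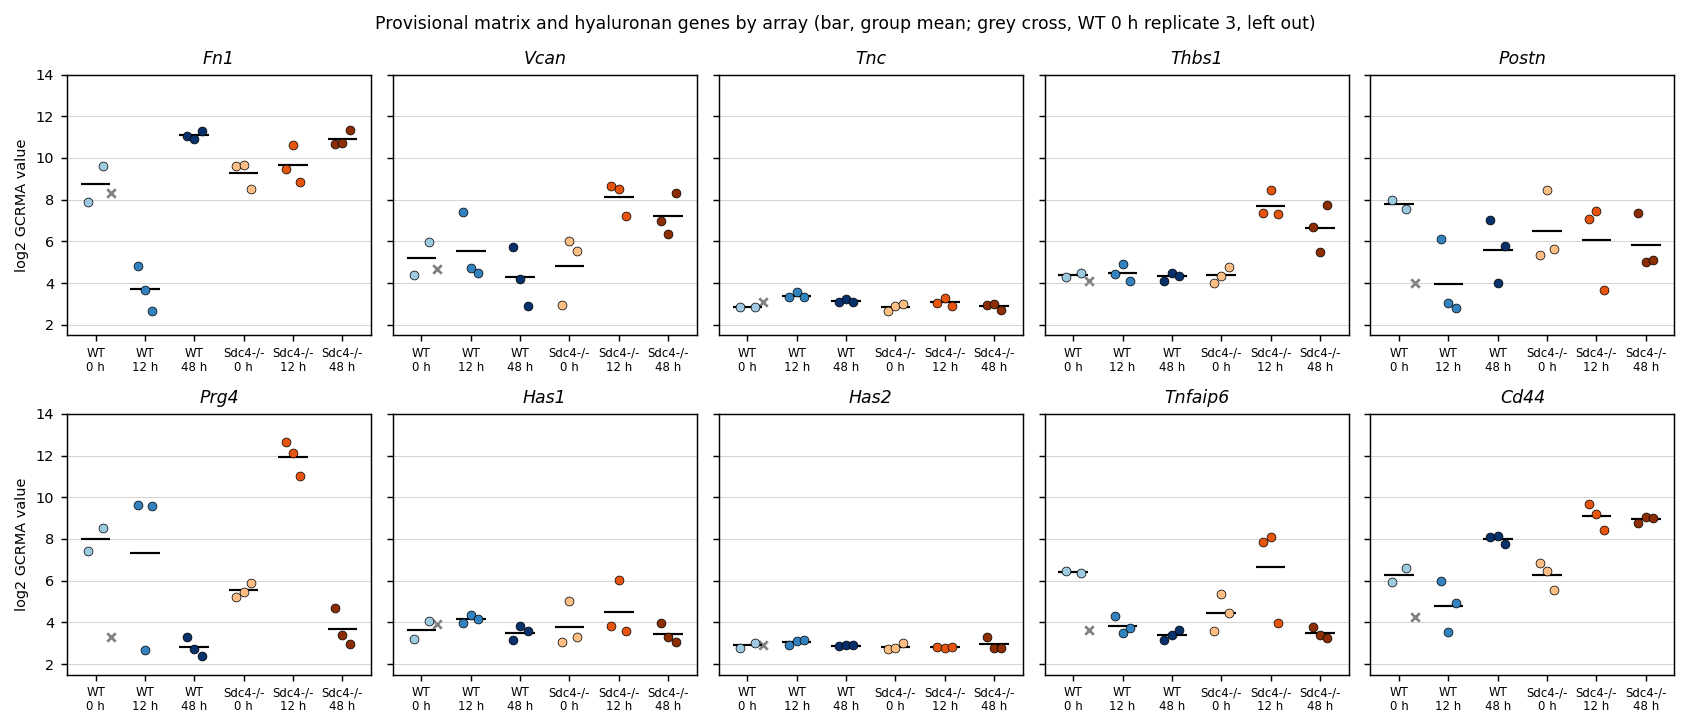
Log2 GCRMA values of the representative probe set of each gene (vertical axis) in each array, by genotype and time (horizontal axis); points are arrays, bars are group means and grey crosses are wild type uninjured replicate 3, left out of the fit. Fn1 was lowest on the wild type 12 h arrays (2.65 to 4.80) and Prg4 highest on the Sdc4-/- 12 h arrays (11.0 to 12.7), while Tnc and Has2 stayed between 2.67 and 3.56 on all 17 arrays.

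Fn1, which encodes the main adhesive glycoprotein of the provisional matrix, fell and then recovered in wild type cells. Its log2 values were 7.87 and 9.63 in uninjured wild type arrays, 4.80, 3.69 and 2.65 at 12 h, and 11.04, 10.90 and 11.30 at 48 h. The 3 wild type groups did not overlap, and the 12 h arrays were the lowest of all 17. The 12 h change was -5.03 (standard error 0.68, adjusted p = 1.78e-04), or 32.8-fold lower, and the change from 12 h to 48 h was 7.37 (standard error 0.61, adjusted p = 8.45e-06). At 48 h Fn1 stood 2.33 above the uninjured level (adjusted p = 0.0433). This last call is narrow: without wild type uninjured replicate 1 the change was 1.45 (adjusted p = 0.357), and it was lost as well without any 1 of the wild type 48 h arrays (adjusted p = 0.0771 to 0.0989), of the Sdc4-/- 48 h arrays, Sdc4-/- uninjured replicates 1 and 2 or Sdc4-/- 12 h replicate 1 (adjusted p = 0.0528 to 0.0579).

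In Sdc4-/- cells no change in Fn1 was called. It was at 9.61, 9.67 and 8.50 in uninjured arrays, 9.46, 10.64 and 8.82 at 12 h, and 10.68, 10.73 and 11.32 at 48 h. The uninjured and 12 h arrays overlap (log2 change 0.38, 95% interval -0.94 to 1.71, adjusted p = 0.765), and the 48 h change of 1.65 was not called (adjusted p = 0.188). At 12 h Fn1 was 5.93 higher in Sdc4-/- than in wild type cells (standard error 0.61, adjusted p = 7.24e-05), and the 12 h changes of the genotypes differed by 5.42 (standard error 0.91, adjusted p = 0.0036). Its second probe set lay at 3.33 to 4.31 on all 17 arrays and was called in no comparison. With the hybridization controls as a covariate the wild type 12 h change was -0.99 (adjusted p = 0.825) and the difference at 12 h was 3.71 (adjusted p = 0.0519), neither called.

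Thbs1, an adhesive glycoprotein that binds CD47 and CD36 and can activate latent TGF-beta, rose in Sdc4-/- cells after injury and was flat in wild type cells. It was at 4.28 and 4.50 in uninjured wild type arrays, 4.44, 4.90 and 4.12 at 12 h, and 4.09, 4.50 and 4.36 at 48 h. All 8 wild type values lie within 1 log2 unit of each other. In Sdc4-/- cells it was at 4.02, 4.34 and 4.76 uninjured, 7.37, 8.48 and 7.29 at 12 h, and 6.68, 5.50 and 7.72 at 48 h, with every injured array above every uninjured one. The changes were 3.34 at 12 h (standard error 0.47, adjusted p = 0.00126), or 10.1-fold, and 2.26 at 48 h (adjusted p = 0.0159). The 12 h changes of the genotypes differed by 3.24 (standard error 0.71, adjusted p = 0.0126), whereas the 48 h changes differed by 2.33 (adjusted p = 0.0934), which was not called.

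Between genotypes Thbs1 was 3.23 higher in Sdc4-/- cells at 12 h (adjusted p = 6.85e-04) and 2.32 higher at 48 h (adjusted p = 0.0155). Sdc4-/- 48 h replicate 3 carries part of the 48 h result: without it the change from uninjured was 1.71 (adjusted p = 0.0509) and the difference from wild type 1.77 (adjusted p = 0.0504). The change from uninjured was also lost without Sdc4-/- uninjured replicate 1 (2.08, adjusted p = 0.0550) and at the threshold without Sdc4-/- 48 h replicate 1 (2.24, adjusted p = 0.05). The second Thbs1 probe set was near the floor, at 2.42 to 3.70, and was called nowhere. With the hybridization controls as a covariate the rise in Sdc4-/- cells at 12 h was 3.65 (adjusted p = 0.0012), but the genotype difference at 12 h was 2.05 (adjusted p = 0.266).

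Vcan, the large proteoglycan that binds hyaluronan, had its highest values in the Sdc4-/- arrays after injury but passed no test on its representative probe set. It was at 8.64, 8.52 and 7.20 in Sdc4-/- cells at 12 h and 6.99, 6.36 and 8.32 at 48 h, above the uninjured values of 2.94, 6.00 and 5.53. The wild type arrays ranged from 2.90 to 7.43 with the 3 groups overlapping. The Sdc4-/- 12 h change of 3.29 had an adjusted p of 0.0854 and a 95% interval of 1.06 to 5.53, which is not adjusted for the number of probe sets. Of the 7 other Vcan probe sets, 4 were called higher in wild type cells at 12 h by 0.26 to 0.67, between means of 2.34 and 3.17 at the floor. Another ran from 2.38 to 7.20 over the 17 arrays, with a Sdc4-/- 12 h change of 3.13 that was not called either (adjusted p = 0.0811).

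Tnc, which encodes a matricellular protein of regenerating muscle and tendon, was at or near the floor on all arrays. It rose in wild type cells at 12 h by 0.55 (adjusted p = 0.00898), from 2.87 and 2.84 to 3.34, 3.56 and 3.31, a call lost without wild type uninjured replicate 2 (0.53, adjusted p = 0.0528). The second Tnc probe set, at 2.36 to 3.98, did not share this call (0.19, adjusted p = 0.704, groups overlapping). Postn, a matricellular protein of fibroblasts and periosteum, varied widely within groups. It was at 8.0 and 7.55 in uninjured wild type arrays and at 6.11, 3.03 and 2.79 at 12 h (log2 change -3.80, adjusted p = 0.0531), and the Sdc4-/- arrays ranged from 3.66 to 8.47 with all 3 groups overlapping. Postn was called in no comparison. Postn was at 4.01 on the wild type uninjured array left out.

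Prg4, which encodes the mucin-like boundary lubricant of joints and tendon sheaths and also binds CD44, had the widest span of group means of the 10. In Sdc4-/- cells it was at 5.20, 5.48 and 5.91 uninjured, 12.65, 12.12 and 11.01 at 12 h, and 4.68, 3.39 and 2.96 at 48 h. The 3 groups did not overlap, and the 12 h arrays were the highest of all 17. The rise was 6.40 (standard error 1.41, adjusted p = 0.0169) and the fall to 48 h was -8.25 (standard error 1.41, adjusted p = 0.00458). The rise lost its call without Sdc4-/- uninjured replicate 1 (6.23, adjusted p = 0.0531), uninjured replicate 2 (6.37, adjusted p = 0.0509) or 12 h replicate 1 (6.03, adjusted p = 0.0653), while the fall kept it without any 1 array.

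In wild type cells the 3 arrays at 12 h split. Prg4 was at 7.40 and 8.55 uninjured. At 12 h it was at 9.64 and 9.59 on replicates 1 and 3. On replicate 2, the array with the lowest Actb control, it was at 2.69. At 48 h it was at 3.29, 2.73 and 2.40. The 12 h change was -0.67 (95% interval -4.09 to 2.76, adjusted p = 0.759), and the 48 h change of -5.17 missed the threshold (adjusted p = 0.0511) although the groups do not overlap. At 12 h Prg4 was 4.62 higher in Sdc4-/- than in wild type cells (adjusted p = 0.041), and without wild type 12 h replicate 2 the difference was 2.31 (adjusted p = 0.0193). Leaving out any 1 of the 14 arrays of the other 5 groups ended this call, at an adjusted p of up to 0.117. On the wild type uninjured array left out Prg4 was at 3.31. The genotype difference in the 12 h change, 7.06, had an adjusted p of 0.0511.

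Has1 and Has2, which polymerize hyaluronan, were not called in any of the 11 comparisons. Has1 ranged from 3.07 to 6.01 and was highest on Sdc4-/- 12 h replicate 2 (6.01), where the other 2 arrays of the group had 3.85 and 3.58. The 2 Has2 probe sets stayed at 2.43 to 3.31 on all 17 arrays, so that a change in Has2 could not be measured at these signals.

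Tnfaip6 encodes TSG-6, which links heavy chains of inter-alpha-inhibitor to hyaluronan. Its log2 values were 6.47 and 6.37 in uninjured wild type arrays, 4.30, 3.47 and 3.74 at 12 h, and 3.13, 3.40 and 3.64 at 48 h. In Sdc4-/- cells they were 3.59, 5.35 and 4.44 uninjured, 7.85, 8.08 and 3.97 at 12 h, and 3.79, 3.40 and 3.25 at 48 h. All injured wild type arrays were below both uninjured ones, and among Sdc4-/- arrays 2 of the 3 at 12 h stood above all others while replicate 3 lay within the uninjured range. The wild type 12 h change was -2.58 (standard error 0.94, adjusted p = 0.047), the Sdc4-/- 12 h change 2.17 (adjusted p = 0.168), the difference between genotypes at 12 h 2.8 (adjusted p = 0.038) and the difference of the 12 h changes 4.75 (standard error 1.26, adjusted p = 0.0306). From 12 h to 48 h Tnfaip6 fell by 3.15 in Sdc4-/- cells (adjusted p = 0.0461).

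These Tnfaip6 calls lay close to the threshold. On wild type uninjured replicate 3, the array left out, Tnfaip6 was at 3.62, and with that array in the fit the wild type 12 h change was -1.65 (adjusted p = 0.226) and the difference of the 12 h changes 3.82 (adjusted p = 0.2), neither called. Without Sdc4-/- 12 h replicate 3 the difference at 12 h was 4.13 (adjusted p = 1.11e-04), and without replicate 2 of that group it was 2.07 (adjusted p = 0.152). The wild type 12 h call was lost without any 1 of the 8 wild type arrays, Sdc4-/- uninjured replicate 3 or any 1 Sdc4-/- 48 h array (adjusted p up to 0.16), and the fall from 12 h to 48 h without any 1 of 16 arrays, all but Sdc4-/- 12 h replicate 3 (adjusted p up to 0.173). The difference at 12 h was lost as well without either wild type uninjured array, wild type 12 h replicate 2 or 3, Sdc4-/- uninjured replicate 3, Sdc4-/- 12 h replicate 1 or any 1 Sdc4-/- 48 h array (adjusted p = 0.0511 to 0.140). The difference of the 12 h changes was lost without either wild type uninjured array, wild type 12 h replicate 2, Sdc4-/- uninjured replicate 1 or 3, or Sdc4-/- 12 h replicate 1 or 2 (adjusted p up to 0.0947). With the hybridization controls as a covariate the wild type 12 h change turned to 2.58 (adjusted p = 0.641).

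Cd44, the main cell surface receptor for hyaluronan, was higher after injury in Sdc4-/- cells at both times. It was at 6.83, 6.45 and 5.58 uninjured, 9.69, 9.17 and 8.41 at 12 h, and 8.78, 9.06 and 9.0 at 48 h, and no injured array overlaps the uninjured ones. The changes were 2.8 at 12 h (standard error 0.53, adjusted p = 0.0069) and 2.66 at 48 h (standard error 0.53, adjusted p = 0.0116). In wild type cells it was at 5.92 and 6.61 uninjured, 5.97, 3.53 and 4.92 at 12 h, and 8.10, 8.15 and 7.77 at 48 h. The wild type 12 h change was -1.46 (adjusted p = 0.0688), with the groups overlapping, and the rise from 12 h to 48 h was 3.2 (standard error 0.53, adjusted p = 0.00177).

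At 12 h Cd44 was 4.29 higher in Sdc4-/- than in wild type cells (standard error 0.53, limma adjusted p = 2.44e-04), or 19.5-fold. The 12 h changes differed by 4.26 (standard error 0.79, limma adjusted p = 0.00564), a call lost with all 18 arrays and after quantile normalization. On the wild type uninjured array left out Cd44 was at 4.28, below the 5.92 and 6.61 of those used. At 48 h the difference was 0.94 (95% interval -0.20 to 2.08, adjusted p = 0.354). A second Cd44 probe set gave the same calls and in addition a wild type 48 h change of 2.50 (adjusted p = 0.005), where the representative had 1.74 (adjusted p = 0.0741). The other 2 Cd44 probe sets ran differently: they were called higher in wild type cells at 12 h by 1.98 (adjusted p = 0.0427) and by 1.01 (adjusted p = 0.0285), from uninjured values of 2.40 to 2.55. Between genotypes at 12 h the first of these had a difference of 0.55 (adjusted p = 0.602), and the second was called lower in Sdc4-/- cells, by -0.95 (adjusted p = 0.0402). The first was also called higher in wild type cells at 48 h, by 2.63 (adjusted p = 0.0291). Neither was called against uninjured in Sdc4-/- cells at 12 h or 48 h. The map of all probe sets shows this disagreement. With the hybridization controls as a covariate the difference at 12 h was 2.98 (adjusted p = 0.135) and that of the 12 h changes 2.23 (adjusted p = 0.624).

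**Figure D2:**
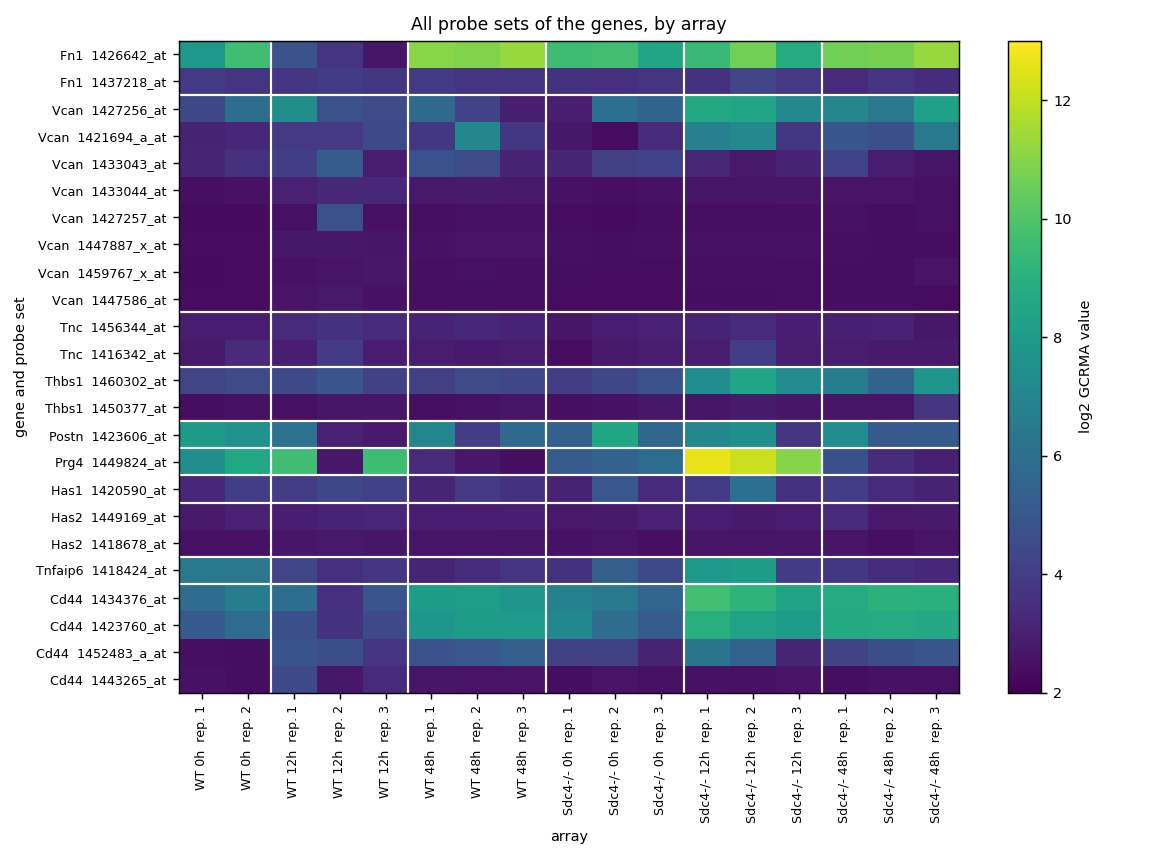
Log2 GCRMA value (colour) of the 24 probe sets (rows, by gene) on the 17 arrays used (columns, by group). For Cd44, the representative probe set and the one beside it had their lowest group mean on the wild type 12 h arrays (values of 3.53 to 5.97), whereas another had its highest value, 4.42, on wild type 12 h replicate 1; most Vcan probe sets stayed near the floor.

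Injury was compared with no injury in each genotype. In wild type cells at 12 h, 3 of the 10 genes were called (Tnc higher, Fn1 and Tnfaip6 lower), beside 37.5% of all probe sets on the array. In Sdc4-/- cells at 12 h, 3 were called, all higher (Thbs1, Prg4 and Cd44), beside 6.41%. At 48 h, 1 was called in wild type cells (Fn1, higher) beside 12.5%, and 2 in Sdc4-/- cells (Thbs1 and Cd44, higher) beside 4.49%. From 12 h to 48 h, 2 were called in wild type cells (Fn1 and Cd44, higher) beside 12.4%, and 2 in Sdc4-/- cells (Prg4 and Tnfaip6, lower) beside 5.98%. The wild type 12 h count of the 10 is near its background. Most probe sets lie at the floor, and over the 9962 whose mean reached 4 the shares called were 46.7% in wild type and 16.4% in Sdc4-/- cells at 12 h, 19.3% and 9.34% at 48 h, and 26.8% and 18.2% from 12 h to 48 h. The median 12 h change of the 10 was -0.29 in wild type and 1.43 in Sdc4-/- cells, where the medians over all probe sets were 0.15 and 0.05, and over those 9962 they were -1.43 and -0.58. Both 12 h comparisons were made with their own uninjured arrays and share none.

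**Figure D3:**
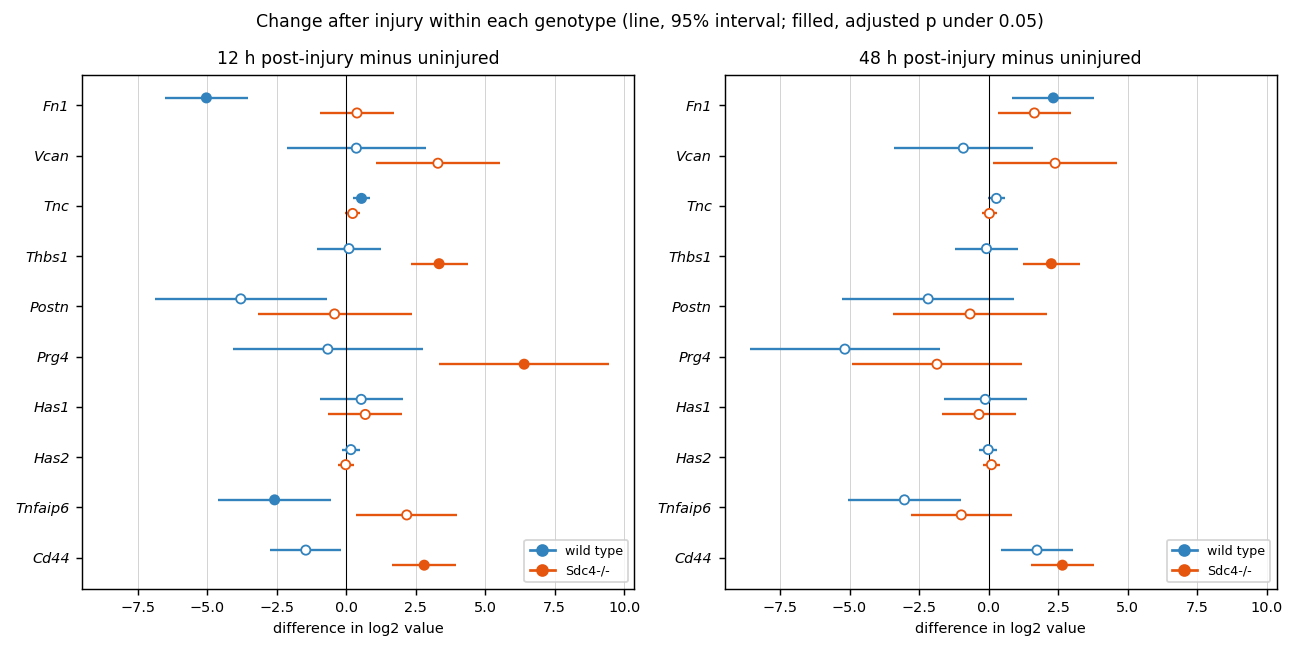
Change in log2 value from uninjured to 12 h (left) and 48 h (right) post-injury (horizontal axis) for each gene (vertical axis), wild type in blue and Sdc4-/- in orange; lines are 95% intervals from limma, not adjusted for the number of probe sets, and filled points are called. At 12 h Fn1 lay at -5.03 in wild type and 0.38 in Sdc4-/- cells, and Thbs1 at 0.09 and 3.34.

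Genotypes were compared at each time. Strain changes along with genotype, so a difference cannot be assigned to syndecan-4. In uninjured cells limma called 0 of the 10 genes (0 also at an unadjusted p under 0.05) beside 3.8% of all probe sets, and the ordinary analysis of variance called 0 too. The widest gaps there were those of Prg4 at -2.45 (95% interval -5.87 to 0.98, adjusted p = 0.63) and Tnfaip6 at -1.96 (95% interval -3.99 to 0.08, adjusted p = 0.41), both lower in Sdc4-/- cells. The wild type uninjured array left out held Prg4 at 3.31, below all Sdc4-/- uninjured arrays (5.20 to 5.91). Its Tnfaip6 value of 3.62 lay within theirs (3.59 to 5.35). At 12 h, 5 of the 10 were called, all higher in Sdc4-/- cells by their representative probe sets (Fn1, Thbs1, Prg4, Tnfaip6 and Cd44), beside 17.4%. Over all 24 probe sets 10 were called there, 6 higher and 4 lower in Sdc4-/- cells, the lower ones being 3 of Vcan (-0.53 to -0.19) and 1 of Cd44 (-0.95), with all 4 near the floor in Sdc4-/- cells. At 48 h, 1 was called (Thbs1, higher) beside 5.07%. The 12 h change differed between genotypes for 4 (Fn1, Thbs1, Tnfaip6 and Cd44, with 7 of the 24 probe sets called, 5 higher and 2 of Vcan lower in Sdc4-/- cells) beside 11.1%, and the 48 h change for 0 (1 at an unadjusted p under 0.05, 0 in the ordinary analysis of variance) beside 4.08%. Over the 9962 probe sets with means of 4 or more the shares were 4.42% in uninjured cells, 25.2% at 12 h and 11.4% at 48 h, and 14.5% and 6.4% for the changes. Those 9962 also leaned higher in Sdc4-/- cells at 12 h, with a median difference of 0.69, and 0.69 for the 12 h changes. Over all probe sets these medians were -0.10 and -0.15, and for the 10 genes 2.68 and 3.31. These comparisons share arrays: the wild type 12 h arrays enter both the difference at 12 h and the difference of the 12 h changes.

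**Figure D4:**
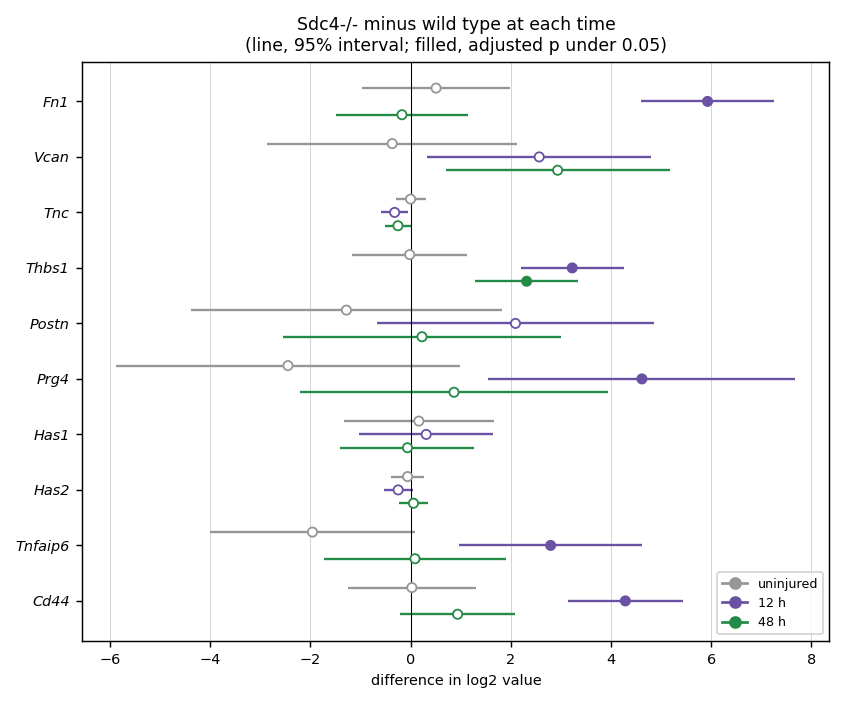
Sdc4-/- minus wild type difference in log2 value (horizontal axis) for each gene (vertical axis) in uninjured cells (grey), at 12 h (purple) and at 48 h (green); lines are 95% intervals from limma, not adjusted for the number of probe sets, and filled points are called. The 5 filled points at 12 h lie between 2.8 (Tnfaip6) and 5.93 (Fn1), and no uninjured point is filled.

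The 12 h genotype counts rest on the wild type 12 h arrays. Without wild type 12 h replicate 2, 4 genes were called at 12 h and 4 in the difference of the 12 h changes. Tnfaip6 lost its call in both, so the second 4 are not the same genes as the 4 reported. That fit keeps replicate 3, whose Actb control was low as well (8.37). With the hybridization controls as a covariate, 0 were called in either comparison, 0 in wild type cells at 12 h, and 5 in Sdc4-/- cells at 12 h. The hybridization controls are highest on exactly the wild type 12 h arrays, and their part in these differences cannot be told apart from that of time and genotype.

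Markers of other cell types moved along with several of the genes. In bulk sorted cells, fewer cells of a type and less RNA per cell cannot be told apart. The marker counts below stand beside 37.5% of all probe sets called in wild type and 6.41% in Sdc4-/- cells at 12 h. From 12 h to 48 h in wild type cells the share was 12.4%. Over probe sets with means of 4 or more these shares were 46.7%, 16.4% and 26.8%. The mean of 10 macrophage and monocyte markers was 3.56 to 4.15 on wild type 12 h arrays, 5.16 to 8.95 on wild type uninjured and 9.75 to 9.94 on wild type 48 h arrays, and on Sdc4-/- arrays 9.93 to 10.6 uninjured, 7.72 to 9.08 at 12 h and 10.2 to 10.4 at 48 h. Fn1 and Cd44, which macrophages also express, had their lowest group means on the same wild type 12 h arrays. Of these 10 markers 9 were called higher in wild type cells from 12 h to 48 h, and Csf1r, a defining one, had means of 2.95 and 12.7 at those times. The part of such cells in the results was not tested.

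The mean of 10 fibroblast markers fell from 7.39 to 8.03 on wild type uninjured arrays to 4.12 to 5.14 at 12 h, beside Postn and Tnfaip6. In Sdc4-/- cells at 12 h it was 6.18 and 6.34 on replicates 1 and 2 and 4.04 on replicate 3, the array on which Tnfaip6 (3.97) and Postn (3.66) were low too. The mean of 8 tenocyte and synovial markers was 2.98 to 3.19 on the Sdc4-/- 12 h arrays, where Prg4 was highest, against 4.47 to 5.35 on the Sdc4-/- uninjured arrays, and 3 of the 8 were called lower there and 0 higher (limma). The satellite cell list of 13 had a mean of 4.31 on both wild type uninjured arrays, 3.29 to 3.63 at 12 h and 4.04 to 4.20 at 48 h, and on Sdc4-/- arrays 3.43 to 3.67 uninjured, 3.90 to 4.19 at 12 h and 3.74 to 4.20 at 48 h. Of the 13, 5 were called lower and 0 higher in wild type cells at 12 h, beside 37.5% of all probe sets called (14.2% lower). The 12 h change was called higher in Sdc4-/- than in wild type cells for 4, beside 11.1% called (4.37% higher). Members of the list differed. From wild type 12 h to 48 h the means of Vcam1 (3.27 to 7.24) and the deleted gene Sdc4 (4.03 to 7.66) rose. Those of Pax7 (2.60 and 2.46) and Chodl (3.59 and 3.54) did not. From Sdc4-/- uninjured to 12 h Vcam1 went from 5.08 to 6.97 and Met from 4.39 to 6.54, with Pax7 at 2.47 and 2.53. In that comparison 0 of the 13 were called.

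Markers of vessel cells fell in wild type cells at 12 h too, beside Fn1 and Tnfaip6. The mean of 7 pericyte and smooth muscle markers was 7.86 to 8.91 on wild type uninjured and 4.63 to 5.78 on wild type 12 h arrays, with 5 called lower and 0 higher, and it was 5.69 to 7.60 on Sdc4-/- uninjured and 4.48 to 4.93 on Sdc4-/- 12 h arrays, with 1 called lower. The mean of 8 endothelial markers was 5.80 to 7.32 on wild type uninjured and 3.07 to 4.51 on wild type 12 h arrays, with 4 called lower and 0 higher, and it was 4.90 to 5.61 and 3.43 to 4.64 on the Sdc4-/- arrays at those times, with 2 called lower. The mean of 9 neutrophil markers was 4.64 to 5.08 on wild type uninjured and 3.40 to 5.17 on wild type 12 h arrays, which overlap. Of these, 2 were called lower and 0 higher. The mean of 6 myofiber markers was 3.92 to 5.36 and 4.50 to 5.34, which overlap too, with 1 called higher. On Sdc4-/- arrays the neutrophil mean was 5.89 to 7.52 uninjured and 4.86 to 6.16 at 12 h, with 3 called lower and 0 higher. Members differed there: S100a9 went from 9.87 to 11.9 and Ngp from 9.70 to 5.31. The Sdc4-/- myofiber mean was 4.00 to 4.88 and 4.23 to 6.59, with 0 called. On wild type 48 h arrays both vessel means stayed low, at 4.27 to 5.18 (pericyte and smooth muscle) and 3.01 to 3.72 (endothelial). Fn1 was at 10.9 to 11.3 there and Tnfaip6 at 3.13 to 3.64. In Sdc4-/- cells, where both means were lower at 12 h, the Fn1 change was 0.38 and not called. The marker counts here stand beside 37.5% of all probe sets called in wild type and 6.41% in Sdc4-/- cells at 12 h. The part of vessel, neutrophil and myofiber cells in the results was not tested.

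**Figure D5:**
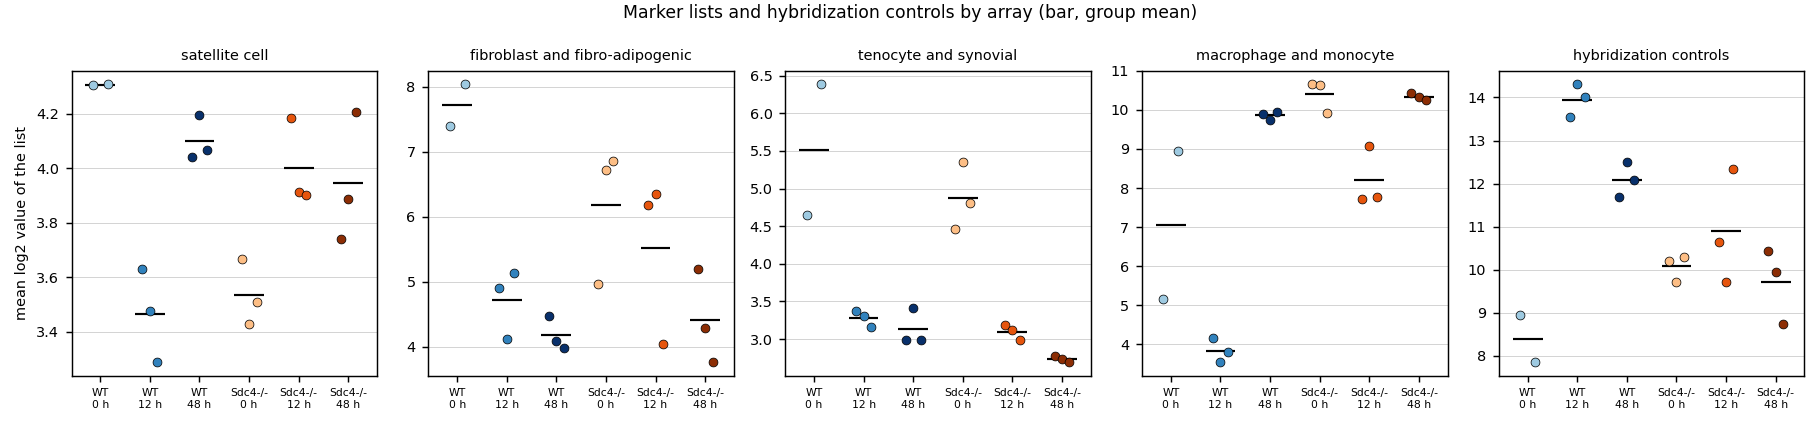
Mean log2 value of 4 marker lists and of the hybridization controls (vertical axes, each with its own range) on each array by genotype and time; points are arrays and bars group means. On the wild type 12 h arrays the macrophage and monocyte mean was 3.56 to 4.15 and the hybridization controls 13.5 to 14.3, the lowest and the highest of the groups.

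Other genes of the pathway were counted on 3 lists. Of 29 measured genes of hyaluronan synthesis, binding and turnover, 4 rose and 5 fell in wild type cells at 12 h, and 2 rose and 1 fell in Sdc4-/- cells (median log2 changes 0.12 and 0.07). In wild type cells Ugp2, which makes UDP-glucose for hyaluronan precursors, fell by 4.47 (adjusted p = 2.96e-05) and Itih5, of the inter-alpha-inhibitor heavy chain family, fell by 7.28 (adjusted p = 2.46e-04). Stab1, a scavenger receptor of macrophages and sinusoidal endothelium, fell in both genotypes, by 2.52 in wild type and by 2.96 in Sdc4-/- cells. Ptx3, a pentraxin that works with TSG-6 in cross-linking hyaluronan, rose in Sdc4-/- cells by 3.74 (adjusted p = 0.0207) and stood at a log2 change of 0.37 in wild type cells (adjusted p = 0.78). Spam1 (0.45, wild type) and Layn (0.45, Sdc4-/-) rose near the floor.

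Of 28 other provisional and matricellular matrix genes, 4 rose and 10 fell in wild type cells at 12 h, and 0 rose and 2 fell in Sdc4-/- cells (median log2 changes -0.88 and 0.07). Vtn, the plasma adhesion protein vitronectin, fell in both, by 4.22 and by 2.11. Sparc, a collagen-binding matricellular protein, and its relative Sparcl1 fell in wild type cells by 5.22 and by 6.37, and Ecm1 fell in Sdc4-/- cells by 2.14. Tnr rose by 0.33 in wild type cells near the floor. Of 29 receptors and proteases, 0 rose and 6 fell in wild type cells at 12 h, and 1 rose and 2 fell in Sdc4-/- cells (median log2 changes -1.14 and 0.06). The thrombospondin receptors Cd47 and Cd36 fell in wild type cells by 4.93 and by 5.81, with Sdc2 (-3.34) and the integrin subunit Itga8 (-4.01). Plaur, the urokinase receptor, rose by 2.05 in Sdc4-/- cells, where the integrin subunit Itgb5 (-3.78) fell. The integrin subunit Itga4 fell in both genotypes, by 1.72 in wild type and by 1.96 in Sdc4-/- cells. These counts stand beside the 37.5% and 6.41% of all probe sets called.

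For the 7 genes whose group means spanned at least 3 log2 units, the genes with the most similar profile were found by the root mean square difference of the 6 centred group means, over 18194 symbols. Fn1 ran closest to P4hb, Calr and Psma6 (0.30 to 0.38 log2 units), Thbs1 to Ggct, Mxd1 and Smox (0.36 to 0.45), Cd44 to Tnf, Pwp1 and Sqstm1 (0.31 to 0.36) and Tnfaip6 to Igfbp5, Fst and Cyp1a1 (0.24 to 0.33). Postn ran closest to Ccni, Ddx17 and Jade1 (0.24 to 0.28) and Vcan to Smox, Myh1 and Wdr77 (0.50 to 0.54). Prg4 had no close match: G0s2, Adamts9 and Akap12 came nearest at 1.45 to 1.53. All profiles come from the same 17 arrays.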

How the data were processed

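The authors recovered spot intensities in the GeneChip Operating System and used GCRMA for normalization in Spotfire DecisionSite 2, and the deposited values are log2 GCRMA signals, taken as given. Versions of the Operating System and of GCRMA are not given in the sources used here. Of 45101 probe sets, 34958 have 1 gene symbol in the platform annotation, 932 have several and 9211 none, and no symbol was updated.

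Differences were tested on 17 arrays by limma (version 3.58.1, under R 4.3.3) in 1 fit of 6 groups and 11 comparisons, with 11 residual and 1.2 prior degrees of freedom, and p-values were adjusted by Benjamini-Hochberg across the whole array. The number of arrays limits the precision. The fit was tested on simulated data with 200 of 45101 probe sets changed in the wild type 12 h comparison. It recovered 37 of 100 log2 changes of 1 and 83 of 100 of 3, with 10 false calls. The data themselves held 16921 calls in that comparison and arrays of uneven quality, which the simulation did not copy. Its rates therefore do not carry over to them. The genes, lists, marker lists and tests were chosen with earlier results of these data known. Named genes are all 10, up to 4 called genes of each list with the smallest adjusted p in either 12 h comparison, and the 3 most similar in profile.

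As alternatives the fit was run on all 18 arrays, on the compared groups alone, with a trended and robust prior, with array weights, after quantile normalization, after a shift to a common 75th percentile, over probe sets with means of 4 or more, as an analysis of variance without moderation, with replicate number as a block, with the mean of the 18 hybridization-control probe sets as a covariate, and counting any probe set of a gene. Each array was also omitted singly, and an array left alone in its group was given the spread of the other groups. The covariate with all 18 arrays was added after seeing the data. A change counts as turned only if its sign flips and at least 1 of the fits calls it. No pair of arrays held identical values (highest correlation 0.968).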

Additional observations from a re-analysis of the deposited data

Results flagged for a closer look

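For 4 genes the change from uninjured cells to 12 h post-injury differed between the genotypes by a test of that difference in limma. The difference, Sdc4-/- minus wild type, was 5.42 for Fn1, 3.24 for Thbs1, 4.75 for Tnfaip6 and 4.26 for Cd44 on the log2 scale. For all 4 the 12 h change was the higher in Sdc4-/- cells. The calls of Tnfaip6 and Cd44 were lost with all 18 arrays, and those of Thbs1 and Cd44 after quantile normalization. With the hybridization controls as a covariate all 4 were lost.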

How the results depend on the processing

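The counts of the 10 genes called, as reported, were 3 at 12 h and 1 at 48 h against uninjured in wild type cells, 3 and 2 in Sdc4-/- cells, 2 and 2 from 12 h to 48 h in wild type and Sdc4-/- cells, 0, 5 and 1 between genotypes in uninjured cells, at 12 h and at 48 h, and 4 and 0 in the difference of the 12 h and 48 h changes. With all 18 arrays, 0 were called in wild type cells at 48 h, 1 from 12 h to 48 h in Sdc4-/- cells, 3 between genotypes at 12 h and 2 in the difference of the 12 h changes. With only the groups compared, 3 were called in wild type cells at 48 h, 1 in Sdc4-/- cells at 48 h, 1 from 12 h to 48 h in each genotype, 3 between genotypes at 12 h and 1 in the difference of the 48 h changes. With trend and robust or with a mean of at least 4, 3 were called in wild type cells at 48 h, and with array weights 4, with 2 between genotypes at 48 h. Quantile normalization gave 1 in wild type cells at 12 h, 0 in either genotype at 48 h, 1 from 12 h to 48 h in each, 0 between genotypes at 48 h and 2 in the difference of the 12 h changes, whereas a shift by the 75th percentile gave 5 in wild type cells at 48 h, 6 in Sdc4-/- cells at 12 h and 2 between genotypes at 48 h. Analysis of variance without moderation gave 1 from 12 h to 48 h in Sdc4-/- cells. Counting any probe set of a gene gave 5 in wild type cells at 12 h and 3 at 48 h.

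With the hybridization controls as a covariate, 0 were called in wild type cells at 12 h, 5 in Sdc4-/- cells at 12 h, 1 from 12 h to 48 h in wild type cells, 0 between genotypes at 12 h and at 48 h and 0 in the difference of the 12 h changes. The Tnfaip6 change turned to 2.58 in wild type cells at 12 h and its genotype difference at 12 h to -0.039, neither called. With all 18 arrays in that fit, an alternative chosen after seeing the data, the counts were 1 and 2 in wild type cells at 12 h and 48 h, 3 and 0 between genotypes at 12 h and 48 h and 1 in the difference of the 12 h changes, and Tnfaip6 in wild type cells at 12 h was 1.34. The replicate numbers do not pair the samples (correlations of same-numbered deviations -0.079 to 0.124): with the replicate number as a block, 1 was called from 12 h to 48 h in Sdc4-/- cells, and no other count moved by over 1.5 times.

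Leaving out 1 array at a time gave 1 to 4 in wild type cells at 12 h and 0 to 3 at 48 h, 2 to 4 and 1 to 2 in Sdc4-/- cells, 2 to 3 and 1 to 2 from 12 h to 48 h in wild type and Sdc4-/- cells, 0 to 1, 3 to 6 and 0 to 1 between genotypes in uninjured cells, at 12 h and at 48 h, and 3 to 5 and 0 to 1 in the differences of the 12 h and 48 h changes. The Sdc4-/- 12 h rise of Thbs1, the wild type rise of Fn1 from 12 h to 48 h and the Sdc4-/- fall of Prg4 from 12 h to 48 h kept their call in all 28 other settings. The difference between genotypes at 12 h kept its call in 27 of 28 settings for Fn1, Thbs1 and Cd44, in 14 for Tnfaip6 and in 8 for Prg4. Signals near the array floor, as those of Tnc, Has1, Has2 and most Vcan probe sets, limit the precision of their changes.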
